A study of Saccharomyces cerevisiae with 24 samples.

Results

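The yeast strains compared here carried either of 2 point mutants of the RNA-binding protein Npl3, npl3-F245I in the second RNA recognition motif and npl3-F162Y in the first, and were examined after a shift to 37 °C. The libraries were those labelled with npl3-F245I or npl3-F162Y and with the shift, 3 of each, 6 of the 24 in the series. All strains were haploid W303 MATa cells (ade2-1, can1-100, his3-11,15, trp1-1, ura3-1 and the usual W303 leu2 allele, GAL+) of the npl3-shuffle background, where NPL3 is supplied from a plasmid. The allele sat on pRS315, a low-copy plasmid with the LEU2 marker, and the reference strain carried wild-type NPL3 on the same vector. Cultures grew in the rich medium YPD at 30 °C to mid-log phase and were then held at 37 °C for 1 hour, while the 30 °C cultures had no shift. The series also holds another mutant, npl3-P196D-A197D in the linker between the motifs, which entered the fit and is not described. Each strain is 1 construct, and the labels do not tell separate cultures from repeat libraries. The spread behind each p-value is that between libraries of the same group, pooled over all 24, and may be technical.

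Npl3 is an SR-like protein that joins messenger RNA while it is being transcribed. It takes part in splicing, in the choice of where transcripts end and in export of the mRNA from the nucleus, and it limits its own expression through the processing of its own transcript. Its RNA recognition motifs are folded domains that hold single-stranded RNA, and phenylalanines within them commonly stack on the bases. The series asks how Npl3 hands the components of the messenger ribonucleoprotein (mRNP) over to the mRNA, and the comparison of these alleles sets a change in one motif against a change in the other.

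The affected codons are shown first because they are all that distinguishes the strains by design. Both lie in the single coding stretch of NPL3 (YDR432W), with their first bases 249 apart, in a frame of 415 codons counting the stop. The RefSeq R64 sequence around each is given from 5′ to 3′ on the plus strand, with the mutated phenylalanine codon in capitals and 30 bases on either side; the first spans chrIV:1329236-1329298 and the second chrIV:1329485-1329547.
NPL3 codon of F162Y: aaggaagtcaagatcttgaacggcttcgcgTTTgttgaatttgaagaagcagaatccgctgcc
NPL3 codon of F245I: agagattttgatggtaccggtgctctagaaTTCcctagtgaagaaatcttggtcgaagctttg
Both codons read as phenylalanine, as the allele names require, and F162Y gives tyrosine where F245I gives isoleucine. The base changes on the plasmids are not given in the sources used here.

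The 6 libraries held between 20195774 and 34740383 counts assigned to genes. A further 5.39 to 6.51% of reads fell outside features, and 0.798 to 0.940% were ambiguous. Replicate 2 of each mutant bears a label number from a lower range than the other libraries, and no source used here says what that number stands for. In npl3-F245I replicate 3 several RNAs without a poly(A) tail stood apart. The signal recognition particle RNA SCR1 was at 6.23, 2.86 and 20.6 CPM (read counts scaled to the size of each library) in npl3-F245I and at 3.53, 2.36 and 2.25 in npl3-F162Y, and the mitochondrial 21S_RRNA was at 3.31, 1.76 and 10.4 against 1.91, 1.15 and 1.07. Their part in the results below was not tested, and without that library 2218 genes passed against 2490 with it. The cells are labelled MATa. STE2, the alpha-factor receptor that a-cells make, was at 314, 307 and 299 CPM in npl3-F245I and 349.5, 351 and 342 in npl3-F162Y, and the alpha-factor precursor gene MF(ALPHA)1 was at 4.43, 4.65 and 4.14 CPM in npl3-F245I and 5.14, 4.21 and 5.41 in npl3-F162Y.

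At 37 °C the mutants differed at many genes by small amounts. Of 6518 genes tested, 1208 (18.5%) were higher and 1282 (19.7%) lower in npl3-F245I than in npl3-F162Y, together 38.2% (edgeR quasi-likelihood test, Benjamini-Hochberg adjusted p under 0.05). A change of at least 2-fold was found at 66 of them (1.01%), 24 higher (0.368%) and 42 lower (0.644%); this count was 103 without npl3-F162Y replicate 2 and 25 over genes averaging at least 10 CPM. The replicate values of the groups did not overlap at 3261 genes (50.0%). The median log2 difference over all genes was -0.01. Shares, medians and counts for groups of genes below are to be read against these figures. Throughout, values are CPM on TMM-scaled libraries, in the order of replicates 1, 2 and 3, differences are npl3-F245I minus npl3-F162Y on the log2 scale, and errors of differences are standard errors of the fit. Levels of different genes are not compared, because CPM is not per length. Largest rises and falls are among genes that code for protein, have a standard name, a mean of at least 10 CPM over the 6 libraries and no overlap of the groups.

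**Figure D1:**
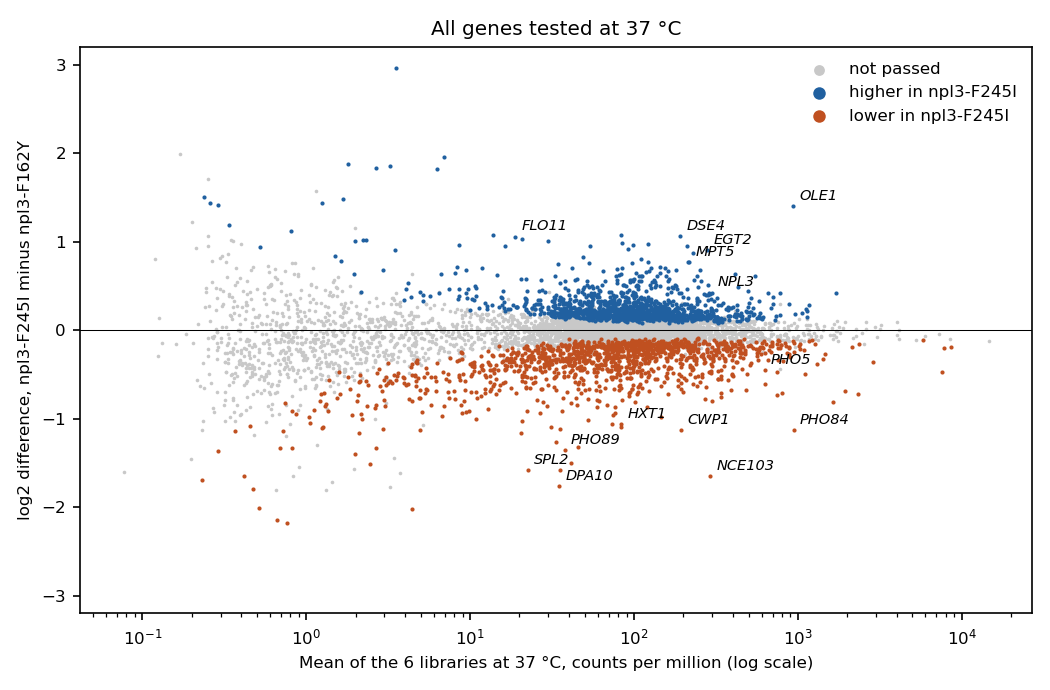
Each point is 1 of the 6518 genes tested; the horizontal axis is the mean over the 6 libraries at 37 °C in CPM (log scale) and the vertical axis the log2 difference, npl3-F245I minus npl3-F162Y. Coloured genes passed an adjusted p of 0.05, 1208 higher and 1282 lower, most of them within a log2 difference of 1 of the zero line; 1 gene lies above the axis.

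The NPL3 transcript itself, which checks the strains' labels only in part because a point mutant still makes it, was at 346, 338 and 341 CPM in npl3-F245I and at 252, 279.8 and 232 in npl3-F162Y. The wild-type strain stood at 203, 180.1 and 193. All 3 npl3-F245I libraries thus lay above all npl3-F162Y libraries, and these above the wild type (log2 difference 0.42 ± 0.06 SE, adjusted p = 3.85e-06; n = 3 and 3). The exact permutation test of the same 6 values gave p = 0.1 (two-sided), the smallest that 20 splits allow. At 30 °C the order was the other way round, with 210.2, 207 and 218 CPM in npl3-F245I and 254, 288 and 274 in npl3-F162Y (log2 difference -0.36 ± 0.06 SE, adjusted p = 6.27e-05), and the change of the difference with temperature passed (log2 change of the difference 0.78 ± 0.08 SE, adjusted p = 1.97e-06). LEU2, the marker of the plasmid that carries the allele, moved in the opposite sense, with 166, 169 and 160.1 CPM in npl3-F245I and 211, 226 and 206 in npl3-F162Y at 37 °C (log2 difference -0.37 ± 0.04 SE, adjusted p = 2.39e-07). The difference at LEU2 also changed with temperature (log2 change of the difference -0.69), so LEU2 was not lower in npl3-F245I at 30 °C. Counts of LEU2 cannot be parted from those of the mutant chromosomal leu2 copy, and plasmid number was not measured.

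Of the lists examined, daughter-cell separation had the highest share of higher genes in npl3-F245I. The list holds enzymes and wall proteins that a newborn daughter makes to free itself from the mother, and other genes such as AMN1, BUD9 and HO. Of 17 genes on this list 15 were higher, 1 was lower and 1 did not pass, with a median log2 difference of 0.55. DSE4, an endoglucanase that cuts the wall on the daughter's side, stood at 257, 258 and 258 CPM in npl3-F245I and 122, 127 and 121 in npl3-F162Y, 2.1-fold higher (log2 difference 1.07 ± 0.04 SE, adjusted p = 1.41e-15). DSE2, a secreted daughter-specific protein, was at 113, 112 and 114 against 55.1, 51.2 and 55.1 (log2 difference 1.07 ± 0.08 SE, adjusted p = 7.77e-10). In both cases the wild type, with 289, 283 and 262 CPM of DSE4 and 113, 87.3 and 100.4 of DSE2, was on the side of npl3-F245I.

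SCW11, a cell wall protein resembling glucanases, was at 109.8, 114 and 111.3 CPM in npl3-F245I and 55.3, 58.9 and 55.3 in npl3-F162Y (log2 difference 0.98 ± 0.05 SE, adjusted p = 1.28e-12). EGT2, a wall protein needed for the cells to part, was at 379, 354 and 362 against 198, 209.5 and 176 (log2 difference 0.91 ± 0.06 SE, adjusted p = 8.25e-12). The chitinase CTS1, which breaks the chitin ring, was at 306, 321 and 313 against 185, 211 and 190.1 (log2 difference 0.68 ± 0.06 SE, adjusted p = 1.51e-09). BUD9, a landmark of bud site choice, was at 40.0, 39.5 and 40.9 against 19.5, 19.4 and 20.9 (log2 difference 1.01 ± 0.05 SE, adjusted p = 3.65e-13). SCW11, EGT2 and BUD9 were picked among genes whose groups do not overlap. The groups of CTS1 did not overlap either, as at 50.0% of all genes. The other higher members included PRY3 (log2 difference 0.76), AMN1, which antagonises mitotic exit (0.70), DSE3 (0.55) and DSE1 (0.51). The lower member was HO, the mating-type endonuclease, which mother cells and not daughters express, at 26.0, 26.3 and 25.2 against 30.2, 34.3 and 32.8 CPM (log2 difference -0.33 ± 0.06 SE, adjusted p = 0.000195). AIM44, a protein of the bud neck that is not on the list, was at 161.9, 158 and 166 against 81.9, 83.8 and 82.7 (log2 difference 0.97 ± 0.05 SE, adjusted p = 2.9e-13).

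The difference at these genes was smaller at 30 °C, where 12 of the 17 were higher (16.8% of all genes were), none was lower and the median was 0.15. The change of the difference with temperature passed and was positive for 12 of the 17 and negative for 1, where 6.67% and 5.98% of all genes did so. DSE4 was at 373, 376 and 391 CPM at 30 °C in npl3-F245I, at 293, 298 and 299 in npl3-F162Y and at 526, 534 and 518 in the wild type. Each strain thus stood higher at 30 °C than at 37 °C, and npl3-F162Y stood lowest at both temperatures. Other transcripts that vary over the cell cycle were not examined for this question. Fewer daughter cells and less RNA per daughter cell cannot be told apart in bulk RNA.

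**Figure D2:**
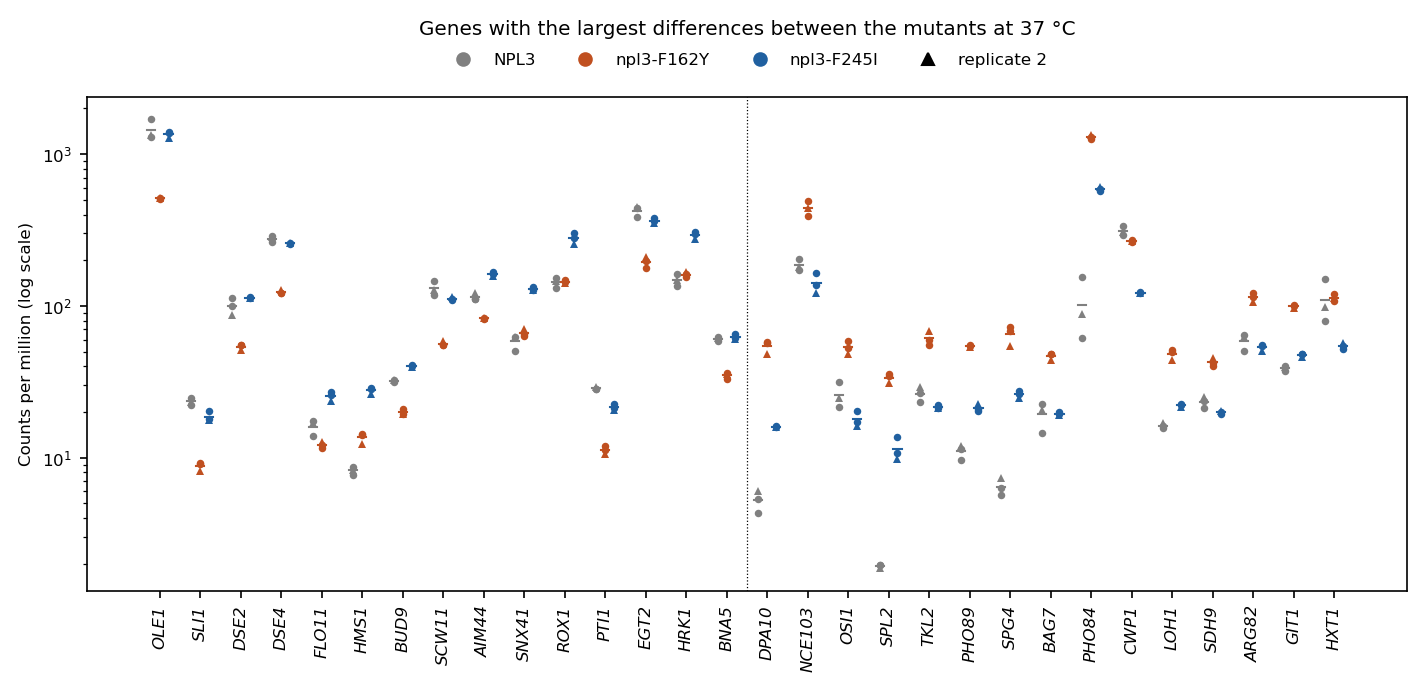
Each column is 1 gene, the 15 with the largest rises left of the dotted line and the 15 with the largest falls right of it; the vertical axis is CPM at 37 °C on a log scale. Points are single libraries, triangles are replicate 2 and short bars are means of 3; OLE1 stands at 1283 to 1391 in npl3-F245I, at 504 to 515 in npl3-F162Y and at 1289 to 1694 in the wild type.

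Most of the phosphate starvation genes listed were lower in npl3-F245I than in npl3-F162Y. Yeast turns these genes on through the factor Pho4 and its partner Pho2 when phosphate runs short, and they encode the phosphate carriers, secreted acid phosphatases and the complex that stores polyphosphate. Of 19 listed, 13 were lower, 1 was higher and 5 did not pass, with a median log2 difference of -0.45. The high-affinity carrier PHO84 was at 589, 611 and 576 CPM in npl3-F245I and at 1288, 1348 and 1250.1 in npl3-F162Y (log2 difference -1.13 ± 0.20 SE, adjusted p = 0.000176), and its spread in the wild type was wide, at 155, 88.1 and 61.8. A non-coding gene, YNCM0001W, overlaps PHO84 on the other strand, and whether reads were counted by strand is not known here. The sodium-coupled carrier PHO89 was at 21.01, 22.5 and 20.2 against 54.7, 53.2 and 55.2 (log2 difference -1.35 ± 0.06 SE, adjusted p = 2e-13), and wild type stood at 9.71, 11.9 and 11.4. For both carriers npl3-F245I lay between the wild type and npl3-F162Y.

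SPL2, an inhibitor of low-affinity phosphate uptake, was at 10.8, 9.84 and 13.6 CPM against 34.3, 31.1 and 35.5 (log2 difference -1.58 ± 0.09 SE, adjusted p = 1.38e-12), and in the wild type near the bottom of the range at 1.97, 1.87 and 1.97. GIT1, which takes up glycerophosphoinositol, was at 48.3, 46.4 and 48.0 against 100.5, 97.3 and 101 (log2 difference -1.07 ± 0.04 SE, adjusted p = 5.71e-15). PHM6, of unknown function, was scarce and was at 1.72, 1.95 and 1.48 against 6.76, 7.44 and 7.01 (log2 difference -2.02 ± 0.17 SE, adjusted p = 1.46e-09). SPL2 and GIT1 were picked among genes whose groups do not overlap. The groups of PHM6 did not overlap either, as at 50.0% of all genes. The repressible acid phosphatase PHO5 differed less, with 534, 545 and 511 CPM against 703, 772 and 698 (log2 difference -0.45 ± 0.06 SE, adjusted p = 5.44e-06) and 127, 136 and 129 in the wild type. Among the subunits of the polyphosphate complex VTC1 (log2 difference -0.58), VTC3 (-0.55) and VTC4 (-0.33) were lower. The higher member was PHO87, a low-affinity carrier that phosphate shortage does not induce, at 123, 129 and 125 against 94.2, 98.5 and 97.7 (log2 difference 0.37 ± 0.05 SE, adjusted p = 1.03e-06).

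Of 10 genes that regulate the response, 3 were higher and 4 lower. PHO2 was at 139, 129.8 and 140.4 CPM in npl3-F245I and 102, 96.7 and 103 in npl3-F162Y (log2 difference 0.44 ± 0.05 SE, adjusted p = 3.86e-07). VIP1, a kinase that makes inositol pyrophosphates, was at 185, 179 and 183 against 227, 238 and 227 (log2 difference -0.34 ± 0.05 SE, adjusted p = 2.77e-06). ARG82, which makes inositol polyphosphates further upstream and is not on the list, was at 55.2, 50.7 and 54.3 against 114, 107 and 122 (log2 difference -1.10 ± 0.07 SE, adjusted p = 8.25e-12), with 50.5, 62.4 and 64.4 in the wild type. At 30 °C 13 of the 19 starvation genes were lower as well, where 16.9% of all genes were, and 1 was higher, with a median of -0.47. The change of the difference with temperature passed at 4 of the 19, 3 upward and 1 downward, where 6.67% and 5.98% of all genes did so. Upward it included PHO5 (log2 change of the difference 0.46 ± 0.09 SE, adjusted p = 0.00176) and PHO89 (log2 change of the difference 0.36 ± 0.09 SE, adjusted p = 0.0082), and the downward one was SPL2 (log2 change of the difference -0.57 ± 0.12 SE, adjusted p = 0.00242).

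The letters CACGTG, the core that Pho4 is known to bind and that reads the same on both strands, were found in the 500 bases before 15 of the 19 starvation genes (78.95%) and before 6.21% of all promoters. The list was written by hand around genes that Pho4 turns on, so this share describes the list and not the comparison. The stretches below show them in capitals for the 3 members with the largest falls among those averaging at least 10 CPM, on the minus strand at SPL2 (chrVIII:375112-375261), PHO84 (chrXIII:26148-26297) and PHO89 (chrII:798768-798917).
SPL2: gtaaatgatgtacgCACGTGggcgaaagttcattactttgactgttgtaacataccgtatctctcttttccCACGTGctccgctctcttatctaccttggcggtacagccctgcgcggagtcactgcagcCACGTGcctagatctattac
PHO84: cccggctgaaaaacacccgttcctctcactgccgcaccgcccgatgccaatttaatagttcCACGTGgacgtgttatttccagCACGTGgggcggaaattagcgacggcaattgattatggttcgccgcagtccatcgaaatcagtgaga
PHO89: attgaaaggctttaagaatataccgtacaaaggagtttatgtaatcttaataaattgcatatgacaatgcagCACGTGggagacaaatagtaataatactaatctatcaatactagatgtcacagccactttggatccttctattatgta
SPL2 holds 4 matches in its window, of which 3 are printed, PHO84 holds 2 and PHO89 holds 1. A match describes the letters and is not a measured binding site. CACGTG was found before 1 of the 17 daughter-cell genes (5.88%). The letters ACCAGC, also searched for, were found before 47.06% of the daughter-cell genes and before 13.38% of all promoters.

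Among lipid genes more passed as higher than as lower in npl3-F245I. OLE1, the fatty acid desaturase that makes all unsaturated fatty acids of the cell, had the largest rise, 2.65-fold, at 1386, 1283 and 1391 CPM in npl3-F245I against 513, 515 and 504 in npl3-F162Y (log2 difference 1.41 ± 0.07 SE, adjusted p = 3.65e-13). The wild type stood at 1694, 1337 and 1289 CPM, so that npl3-F245I and the wild type lay together and npl3-F162Y apart from them. The activators that are released from the endoplasmic reticulum membrane to turn OLE1 on were higher too, MGA2 at 191, 205 and 199 against 119, 132 and 123 (log2 difference 0.67 ± 0.06 SE, adjusted p = 2.17e-09) and SPT23 by a log2 difference of 0.33. So were the elongase ELO1 (log2 difference 0.58 ± 0.05 SE, adjusted p = 3.32e-09), the acyl-CoA synthetase FAA4 (0.62) and ACC1, which makes malonyl-CoA (0.38). In all, 9 of 19 genes of fatty acid and phospholipid synthesis were higher and 3 lower, with a median of 0.13. Of 26 ergosterol genes 14 were higher and 2 lower, with a median of 0.13. The genes printed in this paragraph are all higher ones and do not stand for the lists. Genes of phospholipid synthesis that passed were among the lower ones and are not printed. They included the squalene epoxidase ERG1 at 596, 589.9 and 569 against 455, 457 and 449 (log2 difference 0.37 ± 0.04 SE, adjusted p = 2.6e-07), the desaturase ERG5 (0.36) and the transcription factor ECM22 (0.42). ROX1, the repressor of hypoxic genes, was at 302.5, 257 and 279 against 148, 141 and 143 CPM (log2 difference 0.96 ± 0.06 SE, adjusted p = 4.46e-11), and the wild type, at 154, 146 and 131, was here on the side of npl3-F162Y. SLI1, an acetyltransferase that inactivates an inhibitor of sphingolipid synthesis, was at 17.8, 17.7 and 20.3 against 9.04, 8.17 and 9.19 (log2 difference 1.08 ± 0.09 SE, adjusted p = 1.76e-09).

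The remaining large rises were at genes of mixed function. FLO11, the flocculin of filamentous growth, was at 27.0, 23.5 and 25.7 CPM against 12.2, 12.8 and 11.6 (log2 difference 1.06 ± 0.07 SE, adjusted p = 1e-10). HMS1, a transcription factor, was at 28.7, 26.3 and 28.2 against 14.4, 12.3 and 14.1 (log2 difference 1.03 ± 0.10 SE, adjusted p = 2.65e-08), and both mutants lay above the wild type at 7.74, 8.27 and 8.7. SNX41, a sorting nexin, HRK1, a kinase that activates the plasma membrane proton pump, and BNA5, an enzyme of NAD synthesis from tryptophan, were higher by 0.96, 0.88 and 0.83. In SNX41 and HRK1 npl3-F162Y was close to the wild type, with 65.6, 70.7 and 63.7 CPM against 50.5, 62.7 and 61.9 for SNX41, and in BNA5 it was npl3-F245I, with 65.0, 60.8 and 61.3 CPM against 62.2, 61.1 and 58.4.

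The largest fall was at DPA10 (YLR307C-A), with 16.1, 16.0 and 15.9 CPM in npl3-F245I, 57.6, 48.0 and 57.1 in npl3-F162Y and 4.3, 6.05 and 5.35 in the wild type (log2 difference -1.76 ± 0.09 SE, adjusted p = 3.65e-13). NCE103, the carbonic anhydrase, was at 138, 122 and 164 against 389, 440.0 and 493 (log2 difference -1.65 ± 0.17 SE, adjusted p = 5.4e-07), with 172, 179.6 and 205 in the wild type. TKL2, a transketolase, was at 21.3, 21.3 and 22.3 against 55.0, 68.8 and 59.8 (log2 difference -1.51 ± 0.08 SE, adjusted p = 1.82e-12), and SPG4, a gene of stationary phase, at 26.4, 24.6 and 27.4 against 68.8, 54.2 and 72.4 (log2 difference -1.32 ± 0.10 SE, adjusted p = 2.48e-10). These 4 genes were picked among those whose groups do not overlap, so their separation is not a result. LOH1 (log2 difference -1.12), SDH9, a relative of a succinate dehydrogenase subunit (-1.10), and the glucose carrier HXT1 (-1.06) were also lower.

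Among the oxidoreductase and cell wall genes listed more passed as lower than as higher. Of 20 oxidoreductase and drug-response genes 15 were lower and 1 was higher, with a median of -0.39. OSI1, which oxidative stress induces, was at 17.3, 16.2 and 20.2 CPM against 58.9, 48.3 and 52.6 (log2 difference -1.58 ± 0.10 SE, adjusted p = 8.95e-11), the aryl-alcohol dehydrogenase AAD4 at 36.1, 34.2 and 33.6 against 75.3, 67.0 and 68.7 (log2 difference -1.02 ± 0.05 SE, adjusted p = 3.65e-13), and the methylglyoxal reductase GRE2 at 371, 358 and 379 against 600.0, 582 and 592 (log2 difference -0.68 ± 0.04 SE, adjusted p = 6e-13). For AAD4 and GRE2 the wild type, at 61.7, 63.3 and 63.3 and 602, 632 and 646, was on the side of npl3-F162Y. The peroxiredoxin AHP1 was lower (log2 difference -0.73), and the higher member was the cytochrome c peroxidase CCP1 (0.39). Of 36 cell wall genes listed 20 were lower and 1 was higher, with a median of -0.18. Wall proteins placed on the daughter-cell separation list, such as SCW11 (0.98) and EGT2 (0.91), were higher and are not among the 36. The counts thus depend on how the lists were divided. The mannoprotein CWP1 was at 121, 122 and 123 against 262, 267 and 271 (log2 difference -1.13 ± 0.05 SE, adjusted p = 1.06e-13), with 291, 309 and 337 in the wild type. BAG7, which acts on the GTPase Rho1, was lower (log2 difference -1.26), so was the mannosyltransferase KTR2 (-0.98), and the higher one was GAS1, which links wall glucans (0.22).

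**Figure D3:**
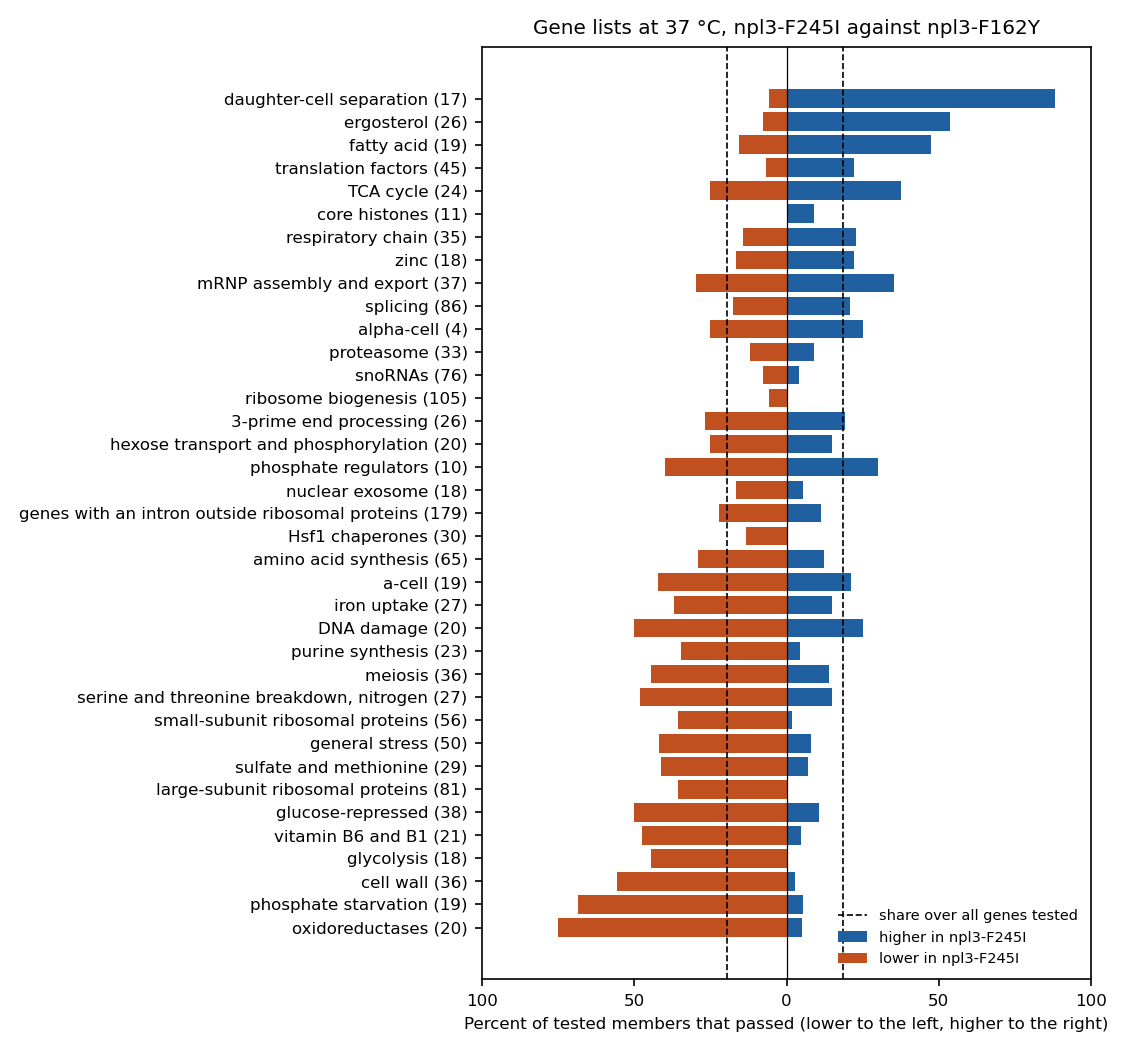
Each bar gives the percent of a list's tested genes (number in brackets) that were higher (right, blue) or lower (left, orange) in npl3-F245I at 37 °C; dashed lines mark the shares over all genes tested, 18.5% and 19.7%. Daughter-cell separation reaches 88.2% higher, and oxidoreductases 75.0% and phosphate starvation 68.4% lower.

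Heat shock chaperones under the factor Hsf1 differed little at 37 °C, as 4 of 30 were lower and none higher, with a median of -0.05. The disaggregase HSP104 was at 2573, 2713 and 2546 CPM in npl3-F245I and 2474, 2711 and 2558 in npl3-F162Y, and the groups overlapped. The small heat shock protein HSP26 did pass, at 1209, 1244 and 1143 against 2044, 2200.4 and 2043 (log2 difference -0.81 ± 0.07 SE, adjusted p = 6.34e-09), as did the Hsp70 gene SSA3 (-0.32). At 30 °C 17 of the 30 were lower and none higher, where 16.9% and 16.8% of all genes were. Of 50 general stress genes, the targets of Msn2 and Msn4, 21 were lower and 4 higher, with a median of -0.17, against 42 lower and 1 higher at 30 °C with a median of -0.43. HSP12, a membrane-bound stress protein, was at 1393, 1584 and 1459 CPM in npl3-F245I and 2209, 2454 and 2472 in npl3-F162Y at 37 °C, and at 178, 158 and 161 against 393, 383 and 382 at 30 °C. Both mutants were higher after the shift, and the difference between them narrowed (log2 change of the difference 0.53 ± 0.11 SE, adjusted p = 0.00318). NQM1, a transaldolase, was lower (log2 difference -0.96) at 37 °C, and UGP1, which makes UDP-glucose, higher by 0.44. The change of the difference with temperature passed at 16 of the 50, all upward, and at 7 of the 30 chaperones, also upward. Over all genes it passed upward at 6.67% and downward at 5.98%. For the 50 stress genes it passed at 33 upward and 1 downward in a fit of the compared groups alone, at 18 and 1 with the range of label numbers as a term, and at 11 to 16 upward and at most 1 downward when 1 library was left out. Over all genes the fit of the compared groups alone gave 911 upward and 843 downward in place of 435 and 390. Of 33 proteasome genes 3 were higher and 4 lower.

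Genes of RNA processing, the steps in which Npl3 acts, were found among both the higher and the lower ones. Of 37 genes of mRNP assembly and export 13 were higher and 11 lower, with a median of 0.03. The export receptor MEX67 was higher by a log2 difference of 0.13 and the helicase SUB2 by 0.17, whereas YRA1, an export adaptor, was lower (log2 difference -0.15). Larger differences were found at CDC31, the centrin of the TREX-2 complex, at 57.3, 47.4 and 54.3 CPM against 102, 90.4 and 111.2 (log2 difference -0.94 ± 0.07 SE, adjusted p = 8.25e-10), at its partner SAC3 (log2 difference 0.28 ± 0.06 SE, adjusted p = 0.000536), at HPR1 of the THO complex (log2 difference 0.30 ± 0.04 SE, adjusted p = 5.46e-07) and at the nuclear basket gene MLP2 (log2 difference 0.41 ± 0.11 SE, adjusted p = 0.00418). Of 86 splicing genes 18 were higher and 15 lower, with a median of 0.02, NAM8 of the U1 particle being at 98.8, 104 and 97.7 against 68.4, 75.0 and 67.4 (log2 difference 0.51 ± 0.05 SE, adjusted p = 8.62e-09).

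Of 26 genes of 3′ end processing and termination 5 were higher and 7 lower. The polyadenylation factor subunit PTI1 was at 21.4, 20.7 and 22.7 CPM in npl3-F245I and 11.9, 10.5 and 11.2 in npl3-F162Y (log2 difference 0.95 ± 0.07 SE, adjusted p = 1.97e-10), below the wild type at 28.3, 29.4 and 28.5. CFT2 was higher by 0.31. NRD1, a termination factor of short non-coding transcripts, was at 126, 119 and 119.8 against 202, 209 and 190.4 (log2 difference -0.72 ± 0.05 SE, adjusted p = 1.84e-11), with 149.7, 138 and 143 in the wild type, and RNA14 was at 103, 112 and 110.2 against 161.98, 156 and 159 (log2 difference -0.55 ± 0.04 SE, adjusted p = 2.67e-10). These 4 genes did not share a direction. Of 18 nuclear exosome genes 1 was higher and 3 lower. Outside the ribosomal proteins, 20 of 179 genes with an intron were higher and 40 lower, with a median of -0.02. Among them MPT5, a Puf-family repressor, was at 272, 280.4 and 272 against 164, 158 and 161 CPM (log2 difference 0.77 ± 0.05 SE, adjusted p = 3.56e-12), and the ubiquitin-conjugating enzyme UBC8 at 73.8, 69.0 and 77.3 against 132, 115 and 139 (log2 difference -0.82 ± 0.08 SE, adjusted p = 1.7e-08). Counts per gene do not part spliced from unspliced reads. Of 76 small nucleolar RNAs 3 were higher and 6 lower, with a median of -0.05. Without the 4 lower-numbered libraries of the series 4 were higher and 13 lower, with a median of -0.18. The libraries were made with an mRNA kit, and how well they capture these RNAs is not known here.

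The genes of cytosolic ribosomal proteins that passed differed by small steps, nearly all in 1 direction at each temperature and in opposite directions at the 2 temperatures. At 37 °C 49 of 137 were lower and 1 higher in npl3-F245I, with a median log2 difference of -0.11, and 126 of the 137 lay below zero whether or not they passed. At 30 °C 48 were higher and none lower, where 16.8% and 16.9% of all genes were, with a median of 0.11, and 132 lay above zero. The change of the difference with temperature passed at 64, all downward, with a median of -0.23, where 5.98% of all genes passed downward and 6.67% upward. RPS14B stood at 307, 306 and 296 CPM in npl3-F245I and 398, 394 and 416 in npl3-F162Y at 37 °C (log2 difference -0.41 ± 0.05 SE, adjusted p = 3.34e-07), and RPL19A at 633, 635 and 621 against 742, 756 and 737 (log2 difference -0.24 ± 0.04 SE, adjusted p = 3.2e-05). Many ribosomal proteins are encoded by a pair of near-identical genes between which reads can be split, so single members are less certain than the group.

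As a share of all assigned counts, ribosomal protein transcripts made up 8.28, 8.06 and 8.35% in npl3-F245I and 8.77, 8.40 and 8.80% in npl3-F162Y at 37 °C. The lowest value of each mutant was in replicate 2, and every npl3-F245I library was below every npl3-F162Y library. At 30 °C the means were 14.2% ± 0.058 (SD, n = 3) and 13.2% ± 0.20, and in the wild type 16.5% ± 0.37 at 30 °C and 11.3% ± 0.83 at 37 °C. The counts depend on single libraries at 30 °C more than the medians do. Without npl3-F162Y replicate 3 or npl3-F245I replicate 3 at 30 °C, 18 genes were higher at 30 °C in place of 48, and without npl3-F162Y replicate 1 there 25 were. The number was 80 without the lower-numbered libraries or with the range of label numbers as a term, and 107 in a fit of the compared groups alone. Over all genes the fit of the compared groups alone called 1655 higher at 30 °C in place of 1096. The change with temperature passed at 29 to 80 genes when single libraries of these groups were left out and at 116 in a fit of the compared groups alone, with medians from -0.25 to -0.22. Over all genes that last fit called 843 downward changes in place of 390. Ribosome biogenesis genes encode factors that assemble the ribosome. Of 105, 6 were lower and none higher at 37 °C (median -0.05), and 39 were higher and 4 lower at 30 °C (median 0.24), although 9 were higher without npl3-F245I replicate 3 there, 13 without npl3-F162Y replicate 3 and 21 without npl3-F162Y replicate 1. Over all genes 16.8% were higher and 16.9% lower at 30 °C. The change with temperature passed at 5 of the 105 downward and 1 upward, where 5.98% and 6.67% of all genes did so. In a fit of the compared groups alone 92 were higher at 30 °C, 22 were lower and 4 higher at 37 °C, and the change passed at 87 downward and 1 upward. NOP16 was lower at both temperatures (log2 difference -0.63 at 37 °C and -0.71 at 30 °C). Of 45 translation factor genes 10 were higher and 3 lower at 37 °C.

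**Figure D4:**
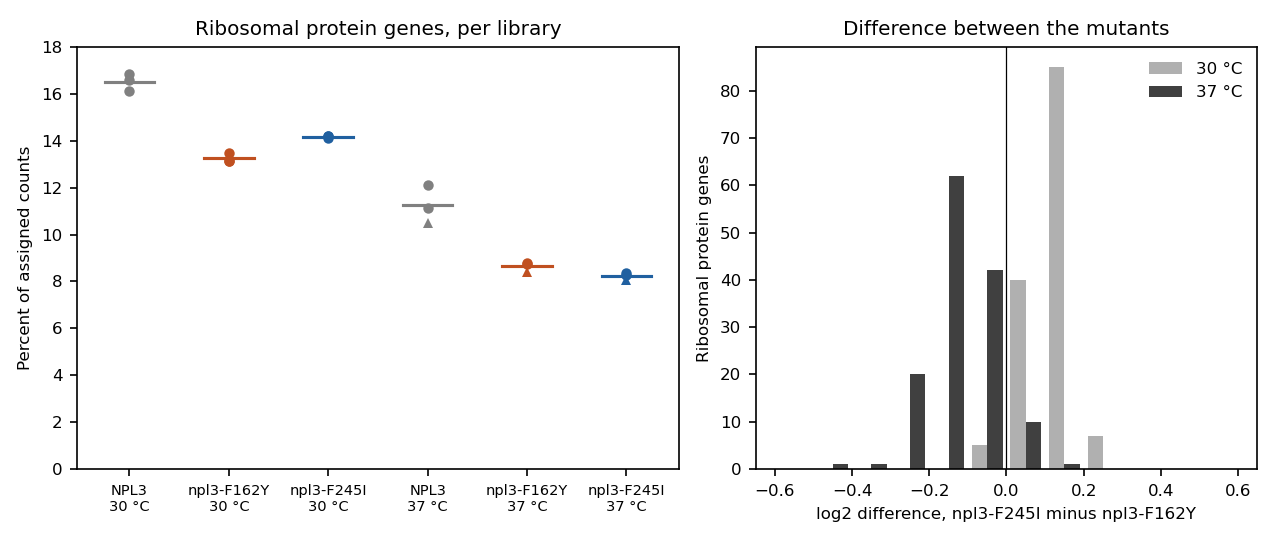
Left, the percent of assigned counts from ribosomal protein genes in each library (points; triangles are replicate 2 at 37 °C) with group means (bars). Right, the number of the 137 genes by log2 difference between the mutants at 30 °C (grey) and 37 °C (dark), centred above zero at 30 °C, with a median of 0.11, and below it at 37 °C, with a median of -0.11.

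In the lists of amino acid, sulfur, purine, nitrogen and vitamin metabolism more genes were lower than higher in npl3-F245I at 37 °C. Of 65 amino acid synthesis genes 19 were lower and 8 higher, CPA1 of arginine synthesis at 294, 308 and 306 CPM against 444, 465 and 437 (log2 difference -0.57 ± 0.06 SE, adjusted p = 3.43e-08) and asparagine synthetase ASN1 higher by 0.24. Of 29 sulfate and methionine genes 12 were lower and 2 higher, among them MET17 (-0.29), which YLR302C overlaps on the other strand. Of 23 purine synthesis genes 8 were lower and 1 higher, with ADE12 at a log2 difference of -0.25 at 37 °C and 0.23 at 30 °C. Of 27 genes of serine and threonine breakdown and nitrogen use 13 were lower and 4 higher, the serine deaminase CHA1 at 41.3, 40.4 and 44.3 against 77.5, 76.3 and 76.6 (log2 difference -0.87 ± 0.05 SE, adjusted p = 1.64e-12) and the proline oxidase PUT1 at 250.3, 259 and 250.4 against 422, 429 and 432 (log2 difference -0.76 ± 0.06 SE, adjusted p = 1.24e-09). CHA1 was far below the wild type, at 181, 168 and 169, in both mutants. Of 21 genes for vitamins B6 and B1 10 were lower and 1 higher, with a median of -0.19, among them SNZ1 (-0.56) and THI20 (-0.42). At 30 °C more were higher than lower in the amino acid, purine and sulfur lists. They held 23 higher and 1 lower of 65, 12 and 1 of 23, and 6 and 3 of 29. Over all genes 16.8% were higher and 16.9% lower there. The change of the difference with temperature passed downward at 16, 10 and 9 of them and upward at 0, 1 and 0. Over all genes 5.98% passed downward and 6.67% upward. The nitrogen and vitamin lists kept their direction at 30 °C.

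Of 38 glucose-repressed genes 19 were lower and 4 higher, with a median of -0.16. The isocitrate dehydrogenase IDP2 was at 73.4, 71.5 and 66.4 CPM against 113, 116 and 116 (log2 difference -0.71 ± 0.05 SE, adjusted p = 3.33e-10), and invertase, SUC2, went the other way at 192, 192 and 192 against 128, 134 and 130.5 (log2 difference 0.55 ± 0.05 SE, adjusted p = 1.86e-09). Of 18 glycolysis genes 8 were lower and none higher, including PDC1 (log2 difference -0.47 ± 0.08 SE, adjusted p = 7.52e-05). Of 20 hexose transport and phosphorylation genes 3 were higher and 5 lower. Of 24 TCA cycle genes 9 were higher and 6 lower, with MDH1 at 508, 516 and 482 against 339.5, 388 and 347 (log2 difference 0.49 ± 0.06 SE, adjusted p = 4.28e-07), and of 35 respiratory chain genes 8 were higher and 5 lower, with COR1 higher by 0.27. Of 27 iron genes 10 were lower and 4 higher, with the wall protein FIT2 at -0.81, and of 18 zinc genes 3 were lower and 4 higher, with the zinc carrier ZRT1 at -0.51.

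Of 19 genes of a-cell identity and mating 8 (42.1%) were lower and 4 (21.1%) higher, with a median of -0.06. Both members printed here are lower ones and do not stand for the list. The a-factor gene MFA1 was at 57.2, 49.6 and 56.9 CPM against 111.4, 87.2 and 99.8 (log2 difference -0.87 ± 0.10 SE, adjusted p = 9.43e-07), and STE2 was lower (log2 difference -0.18). Of 4 alpha-cell genes STE3, the a-factor receptor, was lower (-0.44), SAG1, the alpha-agglutinin, higher (0.34), and the other two did not pass. Of 36 meiosis genes 16 were lower and 5 higher. The master regulator IME1 was at 54.5, 52.9 and 54.4 against 38.0, 35.8 and 34.3 (log2 difference 0.58 ± 0.05 SE, adjusted p = 2.24e-09) and the synaptonemal complex gene ZIP1 higher by 0.55, while the spore wall gene SSP2 was at 17.0, 18.9 and 19.3 against 33.2, 34.6 and 37.6 (log2 difference -0.94 ± 0.07 SE, adjusted p = 4.6e-10). Of 20 DNA damage genes 10 were lower and 5 higher, with HUG1 at -0.66, and of 11 core histone genes 1 was higher. Among the marker genes that all strains carry as mutant alleles, TRP1 (-0.32) and HIS3 (-0.31) were lower and CAN1 was higher by 0.14 (adjusted p = 0.0181). URA3 and ADE2 did not pass, with log2 differences of 0.03 and -0.02.

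Set against 30 °C, where 2199 genes differed between the mutants (33.7%), the difference between them changed with temperature at 825 genes (12.7%), upward at 435 and downward at 390. Without npl3-F162Y replicate 3 at 30 °C it changed at 541. The largest upward change among named genes was at the hexokinase HXK1, which was at 130.0, 130.5 and 115 CPM in npl3-F245I and 235, 246 and 261 in npl3-F162Y at 30 °C and at 863, 885 and 837 and 650.5, 761 and 699.7 at 37 °C (log2 change of the difference 1.27 ± 0.22 SE, adjusted p = 0.00098). At 37 °C alone its difference did not pass (adjusted p = 0.145), and the wild type ranged widely, at 562, 914 and 1134. TSL1, a subunit of trehalose synthase, was lower in npl3-F245I at 30 °C and did not pass at 37 °C (adjusted p = 0.226), with 54.8, 56.3 and 49.8 against 97.7, 112 and 123 at 30 °C and 297, 304 and 286 against 342, 398 and 323 at 37 °C (log2 change of the difference 0.78 ± 0.24 SE, adjusted p = 0.0385). The mannoprotein gene HPF1 turned from lower to higher, with -0.38 at 30 °C and 0.56 at 37 °C (log2 change of the difference 0.95 ± 0.13 SE, adjusted p = 5.12e-05). It has a near-identical copy, CSS1, so that its reads are uncertain.

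The largest downward changes were at DAK2, a dihydroxyacetone kinase, at NCE103, at HXT1, at the mitochondrial gene MRX7 and at DPA10. DAK2 was at 8.21, 8.6 and 8.26 against 7.56, 7.22 and 8.16 CPM at 30 °C and at 16.3, 15.7 and 14.1 against 27.6, 30.1 and 29.3 at 37 °C (log2 change of the difference -1.04 ± 0.18 SE, adjusted p = 0.000391). At 30 °C the difference did not pass (adjusted p = 0.5), and at 37 °C npl3-F245I was lower. HXT1 was at 269, 286 and 289 CPM in npl3-F245I and 317, 335 and 312 in npl3-F162Y at 30 °C, where its groups lay close together, and at 54.1, 57.1 and 51.7 and 119.8, 113 and 107 at 37 °C (log2 change of the difference -0.87 ± 0.19 SE, adjusted p = 0.0048). MRX7 was at 9.15, 8.66 and 9.13 against 18.7, 13.7 and 17.6 at 37 °C, with a difference of -0.04 at 30 °C (log2 change of the difference -0.85 ± 0.17 SE, adjusted p = 0.00179).

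**Figure D5:**
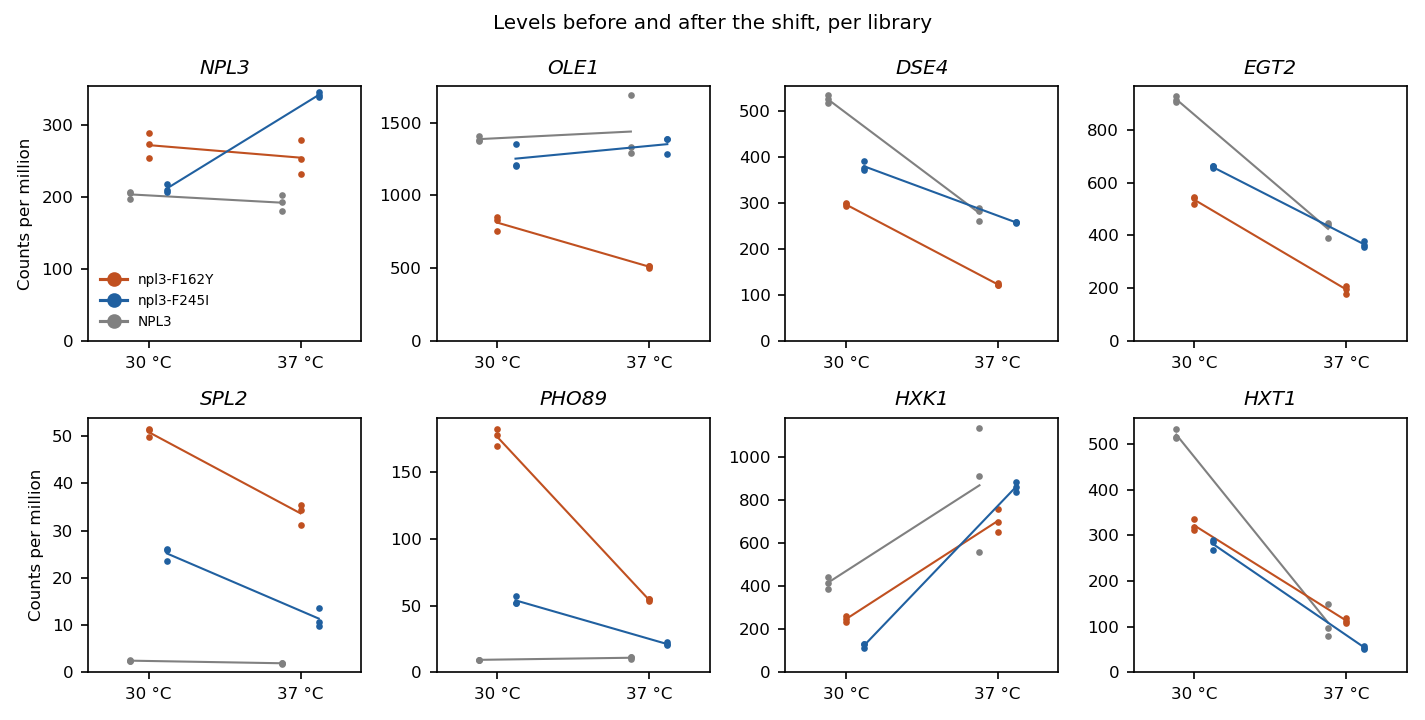
Each panel shows 1 gene, with points for single libraries at 30 and 37 °C in CPM and lines joining group means. NPL3 stands higher at 37 °C than at 30 °C in npl3-F245I, OLE1 stands lower at 37 °C in npl3-F162Y, and SPL2 and PHO89 stand highest in npl3-F162Y at both temperatures.

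The results were looked at without the lower-numbered libraries. Without the 4 such libraries of the series 2361 genes passed, 2149 of them shared with the 2490 above and in the same direction. The ratio of replicate 2 of npl3-F245I to replicate 2 of npl3-F162Y, 1 library against 1 and so with no test, had the same sign as the fit at all 231 genes named by rule or in the text that passed, and 224 of these also passed without the 4 libraries. Without them the daughter-cell list held 14 higher and 1 lower of 17, the phosphate starvation list 13 lower and 1 higher of 19, and the ribosomal protein list 55 lower and 1 higher of 137. Other lists depended on these libraries more. Glucose-repressed genes went from 19 lower and 4 higher of 38 to 14 and 6. The oxidoreductase list went from 15 lower of 20 to 12, with 1 higher in both fits. Meiosis genes went from 16 lower and 5 higher of 36 to 13 and 3. Over all genes 1215 were lower and 1146 higher without these libraries.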

How the data were processed

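The deposited table held raw counts per gene for 24 libraries. Per the submitters' processing notes, the authors used FastQC, STAR 2.7.2a, build R64 and HTSeq; the strand setting was not found in the sources used. Per the labels' protocols, total RNA was extracted with Trizol and libraries were made with a stranded mRNA kit. Nothing was aligned or counted again. Totals and tests leave out the 5 rows of HTSeq's own tallies; no-feature reads were 5.39 to 6.51% in the 6 libraries. Of 7127 features, 6088 had their systematic name in the reference gene table.

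Counts were tested in R 4.3.3 with edgeR 4.0.16 (low-count filter by group, TMM scaling, quasi-likelihood F-test with robust estimation, 1 mean per group over all 24 libraries, 16 residual degrees of freedom, Benjamini-Hochberg adjustment over 6518 genes, threshold 0.05). The common biological coefficient of variation was 5.26%. It pools all groups, and replicates of the wild type at 37 °C differed most. The chi-square per degree of freedom between 2 replicates was 25.26 to 58.03 there. It was 3.7 to 17.08 in npl3-F162Y and 3.85 to 13.18 in npl3-F245I at 37 °C. The part of this in the calls was not tested. The same fit gave the difference at 30 °C and the difference between temperatures. The script was tested on simulated counts with known changes. For NPL3 an exact permutation test (two-sided) was added. Near-identical copies were sought among 6027 coding sequences (BLAST 2.17.0), and promoter motifs in 500 bases before R64 start codons.

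The gene lists were written by hand, and the members and lists were chosen with earlier results of these data known. Lists are described by counts and medians, without a test. Genes were named by a rule: NPL3, the 15 largest rises and 15 largest falls, the 5 largest changes with temperature each way, up to 3 members per list and direction by smallest p, and the strain markers. Not every gene the rule picks is printed, and 29 of the 125 genes in the text were chosen after their values were seen. Results for 1 gene on the lists are not reported here.

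Alternatives were RLE size factors, no filter, a minimum mean of 10 CPM, DESeq2 1.42.0, a fit of the compared groups only, the range of label numbers as a term, the fit without the 4 lower-numbered libraries, replicate blocks and leaving out each library. Residuals of npl3-F245I and npl3-F162Y libraries with the same replicate number at 37 °C correlated in every pair (r = 0.13, 0.53 and 0.41 over 5382 genes, which are not independent). So did npl3-F245I replicate 3 with npl3-F162Y replicate 1 (r = 0.37) and replicate 1 with replicate 3 (0.10), while unlike pairs with replicate 2 were negative. At 30 °C the like pairs gave 0.04, -0.04 and -0.21. Residuals were centred within each group, so a deviation shared by replicate 2 of both mutants makes their other replicates correlate as well. These values therefore cannot show that the numbers pair the libraries, and the labels state no pairing. The replicate blocks are alternatives only.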

Additional observations from a re-analysis of the deposited data

Results flagged for a closer look

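The difference between npl3-F245I and npl3-F162Y was itself different at 37 °C and at 30 °C at 825 genes by the interaction contrast of edgeR (Benjamini-Hochberg adjusted p under 0.05). Values below are the log2 difference at 37 °C minus that at 30 °C for each gene of the text that passed.

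Among other genes, the change was positive at HPF1 (0.95), NPL3 (0.78), AIM44 (0.74), HMS1 (0.71), HRK1 (0.59), SNX41 (0.50), ROX1 (0.47) and SLI1 (0.45). Among other genes, the change was negative at DAK2 (-1.04), NCE103 (-1.0), MRX7 (-0.85), DPA10 (-0.78), SDH9 (-0.54), SPG4 (-0.46) and LOH1 (-0.31). Among metabolic genes, the change was positive at HXK1 (1.27), MDH1 (0.58), SUC2 (0.39) and COR1 (0.22). Among metabolic genes, the change was negative at HXT1 (-0.87), ZRT1 (-0.54), CPA1 (-0.50), FIT2 (-0.50), CHA1 (-0.48), ADE12 (-0.47), MET17 (-0.31), SNZ1 (-0.28) and THI20 (-0.22). Among mating, DNA damage and marker genes, the change was negative at LEU2 (-0.69), HUG1 (-0.40), STE3 (-0.39), HIS3 (-0.35) and STE2 (-0.20). Among phosphate genes, the change was positive at PHO5 (0.46), PHO89 (0.36) and PHO2 (0.35). Among phosphate genes, the change was negative at SPL2 (-0.57). Among cell wall and oxidoreductase genes, the change was positive at CCP1 (0.35). Among cell wall and oxidoreductase genes, the change was negative at KTR2 (-0.56), OSI1 (-0.48), CWP1 (-0.41) and GRE2 (-0.17). Among RNA processing genes, the change was positive at MLP2 (0.57), NAM8 (0.38) and SAC3 (0.27). Among RNA processing genes, the change was negative at NRD1 (-0.50). Among daughter-cell separation genes, the change was positive at DSE4 (0.71), SCW11 (0.67), DSE2 (0.64), EGT2 (0.61), CTS1 (0.53), PRY3 (0.44), DSE3 (0.39), DSE1 (0.38) and BUD9 (0.36). Among daughter-cell separation genes, the change was positive at AMN1 (0.21). Among daughter-cell separation genes, the change was negative at HO (-0.37). Among ribosomal protein genes, the change was negative at RPS14B (-0.33) and RPL19A (-0.25). Among lipid genes, the change was positive at OLE1 (0.78), ELO1 (0.42), FAA4 (0.39), ECM22 (0.29), ACC1 (0.28), MGA2 (0.27), SPT23 (0.25) and ERG5 (0.19). Among stress genes, the change was positive at TSL1 (0.78), HSP104 (0.64), HSP12 (0.53) and UGP1 (0.41).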

How the results depend on the processing

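At 37 °C the number of genes that passed stayed between 2343 and 2814 under the settings that keep every library or leave out the 4 lower-numbered ones, and between 2058 and 2465 when 1 library was left out, with no gene reversed among the calls shared with the main fit. The count at 2-fold or more was 66, and 25 with a minimum mean of 10 CPM, which tests fewer genes, 106 without the 4 lower-numbered libraries and 57 to 103 when 1 library was left out, 103 being without npl3-F162Y replicate 2. At 30 °C a fit of the compared groups alone gave 3339 genes (1655 higher, 1684 lower), and leaving out 1 library gave 692 to 931 higher, 692 being without npl3-F245I replicate 3. For the change with temperature the compared groups alone gave 1754 (911 upward, 843 downward) and the range of label numbers as a term 1257 (635 downward); leaving out 1 library gave 541 to 951, and 242 to 462 downward. The cause of these shifts was not tested. For NPL3, leaving out 1 library gave a log2 difference of 0.36 to 0.50, and the lower-numbered libraries alone, with no test, 0.27.

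Of 230 named genes that passed, other than NPL3, 208 kept direction and call under every alternative with a test, 22 lost the call under some and 0 reversed. Among genes that did not pass, leaving out 1 library took the log2 difference across zero for HSP104 (-0.0135 to 0.0528), URA3 (-0.0272 to 0.0896) and YNL033W (-0.0435 to 0.162). With the replicate block 2558 genes passed at 37 °C, and 2433 with a block within 37 °C, a fit added after seeing the data; the replicate block changed no call among the 231 named genes that passed, and 224 of them passed with the block within 37 °C. Genes near 1 CPM rest on few counts per library, so small differences there were not detectable at this depth.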

Other observations

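Outside the naming rule, and chosen after their values were seen, are 3 genes without a standard name on chromosome XIV, all at low levels. YNL018C was at 8.16, 6.2 and 7.91 CPM in npl3-F245I and 0.539, 0.313 and 0.572 in npl3-F162Y at 37 °C (log2 difference 3.96 ± 0.23 SE, adjusted p = 2.35e-12), with 3.52, 3.06 and 2.67 in the wild type. YNL034W was at 6.12, 6.44 and 6.12 against 0.871, 0.661 and 0.877 (log2 difference 2.96 ± 0.19 SE, adjusted p = 1.81e-11), with 2.09, 1.58 and 1.68 in the wild type. The pair are near-identical copies of each other, so that reads may be split between them, and npl3-F245I lay above and npl3-F162Y below the wild type for both. YNL019C was at 2.11, 2.73 and 2.61 against 0.954, 0.834 and 0.877 (log2 difference 1.48 ± 0.25 SE, adjusted p = 4e-05), while its near-identical copy YNL033W was at 2.92, 2.33 and 3.1 against 2.53, 2.96 and 2.55 (adjusted p = 0.911). At 30 °C the differences were 3.44 for YNL018C, 2.58 for YNL034W and 1.67 for YNL019C, and none of the 3 changed with temperature at the threshold (adjusted p = 0.382, 0.442 and 0.805).

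Also chosen after their values were seen are 5 RNAs that are not messenger RNAs, all higher in npl3-F245I at 37 °C. The 5S rRNA gene RDN5-1 was at 9.82, 10.6 and 12.7 CPM against 3.15, 2.71 and 2.67 (log2 difference 1.95 ± 0.18 SE, adjusted p = 6.05e-09) and differed at 30 °C too (log2 difference 1.58 ± 0.17 SE, adjusted p = 2.1e-07). The RNase P RNA RPR1 was at 2.25, 2.65 and 3.06 against 1.53, 1.29 and 1.11 (log2 difference 1.01 ± 0.20 SE, adjusted p = 0.000236). The mitochondrial 15S_RRNA was at 1.9, 1.07 and 5.62 against 0.747, 0.661 and 0.8 (log2 difference 1.88 ± 0.63 SE, adjusted p = 0.0233). The mitochondrial 21S_RRNA was at 3.31, 1.76 and 10.4 against 1.91, 1.15 and 1.07 (log2 difference 1.85 ± 0.54 SE, adjusted p = 0.0106) and SCR1, the RNA of the signal recognition particle, at 6.23, 2.86 and 20.6 against 3.53, 2.36 and 2.25 (log2 difference 1.82 ± 0.50 SE, adjusted p = 0.0071). Without npl3-F245I replicate 3, where the last 3 were highest, the log2 difference was 0.98 for 15S_RRNA (adjusted p = 0.214), 0.87 for 21S_RRNA (0.135) and 0.73 for SCR1 (0.086), and these 3 no longer passed. 15S_RRNA also lost the call without any 1 of the npl3-F162Y libraries (adjusted p = 0.0597, 0.0702 and 0.0591 without replicates 1, 2 and 3), and 21S_RRNA (0.0841) and SCR1 (0.137) lost it in a fit of the compared groups alone. RPR1 and RDN5-1 still passed without that library (adjusted p = 0.00194 and 8.41e-08).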
